A study of Mus musculus with 24 samples.

Results

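The 10 genes described here encode matricellular proteins, apart from fibronectin (Fn1), which forms matrix fibrils. The others are the thrombospondins Thbs1, Thbs2, Thbs3 and Thbs4, periostin (Postn), tenascin C (Tnc), osteopontin (Spp1) and the CCN family members Ccn1 and Ccn2. All 10 genes were taken by name from the 41710 genes in each of 2 RNA-seq tables. The set was partly chosen by the CPM values of Thbs1, Thbs4 and Postn, whose differences between genotypes stood out in these same tables. For those 3 genes the values are therefore given as a description without a test, and tests are given for the other 7. The cells were mouse embryonic fibroblasts (MEFs), either primary or immortalized with a lentivirus for SV40 T-antigen, and each of the 8 groups was sequenced as 3 libraries. MEFs came from pooled embryos of about day 14 to 16 and carried floxed alleles of Myc, Mlx or both together with a Cre recombinase-estrogen receptor fusion driven by the ubiquitous ROSA26 promoter, which 500 nM 4-hydroxytamoxifen (4OHT) activates. WT cells kept intact loci, MycKO and MlxKO cells had lost Myc or Mlx, and DKO (double-knockout) cells had lost both. Immortalized WT controls were grown without 4OHT, so loss of a gene and exposure to 4OHT cannot be told apart in immortalized cells. Whether primary WT cultures received 4OHT or the ethanol vehicle is not stated per sample, so the same limit may hold in primary cells. Embryos were pooled within a group and the floxed line behind the WT cells is not stated, so genotype and embryo pool cannot be told apart either, and p-values measure only the spread between the libraries of a group.

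Matricellular proteins are secreted into the extracellular matrix, where they act less as scaffold than as signals, binding integrins and other receptors, proteases and growth factors. Thbs1 can activate latent TGF-beta and binds CD47 and CD36, Ccn1 and Ccn2 are immediate-early and YAP/TAZ-responsive products that bind integrins, and Postn, Tnc and Fn1 are deposited by activated fibroblasts in wounds. Several are also secreted by senescent fibroblasts. Myc and the Mlx partner proteins are transcription factors that bind E-boxes, Myc as a dimer with Max.

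On GRCm39, the build of the deposited tables, Thbs1 lies on chr2:117941974-117957616, Thbs2 on chr17:14885761-14914528, Thbs3 on chr3:89122461-89134144 and Thbs4 on chr13:92888095-92931501. Postn lies on chr3:54268501-54298471, Tnc on chr4:63878014-63965443, Spp1 on chr5:104582165-104589235 and Fn1 on chr1:71624673-71692419. Ccn1 lies on chr3:145352720-145355738 and Ccn2 on chr10:24471333-24474900. Genes annotated on the opposite strand overlap most of them, including the protein-coding Mtx1 at Thbs3, and since the use of strand in the counting is not stated, reads of such partners cannot be told apart. Spp1 is overlapped by Gm42793 on its own strand, where strand could not separate the reads. Of the members, only the Spp1 transcript shared 50-base stretches with transcripts of other genes, 28 of 2180 (1.28%).

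Thbs1 and Ccn1 had their highest primary means in DKO cells and their lowest in MlxKO cells. Ccn1 is a textbook target of YAP and TAZ with TEAD factors, and Thbs1 was the most abundant member, so their 250 bases before the annotated start are shown, 5′ to 3′ on the gene's own strand, with matches to 5 motifs in capitals. The motifs, searched on both strands, were the E-box CACGTG, the TEAD core GGAATG, the AP-1 site TGANTCA, the TATA box TATAAA and the CArG box.
Thbs1, chr2:117941724-117941973, plus strand: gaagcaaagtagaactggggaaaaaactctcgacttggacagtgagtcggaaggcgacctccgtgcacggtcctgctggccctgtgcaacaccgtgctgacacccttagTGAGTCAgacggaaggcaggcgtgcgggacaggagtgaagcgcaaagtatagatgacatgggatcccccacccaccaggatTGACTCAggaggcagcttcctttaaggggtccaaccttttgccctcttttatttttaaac
Ccn1, chr3:145355739-145355988, minus strand: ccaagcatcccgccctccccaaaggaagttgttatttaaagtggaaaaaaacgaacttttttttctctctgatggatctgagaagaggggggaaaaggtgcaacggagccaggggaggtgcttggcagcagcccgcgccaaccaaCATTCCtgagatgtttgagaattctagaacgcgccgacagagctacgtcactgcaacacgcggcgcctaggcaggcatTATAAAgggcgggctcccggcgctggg
Thbs1 held 2 AP-1 matches, at 141 to 135 and 60 to 54 bases before the start. Ccn1 held 1 TEAD match, at 105 to 100 bases, in addition to a TATA box at 27 to 22 bases. None of the 9 members' windows searched held CACGTG or a CArG box. Of 21770 windows of the same length before protein-coding genes, 6.26% held the E-box, 12.1% the TEAD core, 6.17% the AP-1 site, 11.9% the TATA box and 1.40% the CArG box. Outside the sequences shown, the TEAD core occurred once before Spp1 and at 2 overlapping places before Thbs4, and TATAAA once before Thbs2, on the opposite strand.

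Each library held between 15986856 and 20966163 reads on genes, so 3 reads corresponded to at most 0.196 CPM (reads relative to library size, the deposited scale). The targeted gene Myc was at 19.9 to 26.8 CPM in primary MycKO and DKO libraries against 85.6 to 100.1 CPM in WT and MlxKO libraries, and at 4.25 to 17.2 CPM against 39.9 to 177 CPM in immortalized cells. Mlx was at 9.73 to 14 CPM in primary MlxKO and DKO libraries against 17.3 to 26.0 CPM in the others, and at 12.1 to 18 CPM against 20.5 to 27.8 CPM in immortalized cells. The paper reports efficient excision of both targets with loss of their proteins, and its LoxP sites flank only part of each gene. Reads of the exons left in place cannot be told apart here from reads of intact transcripts. Among immortalized WT libraries, library 4 stood apart: its correlation with the other WT libraries over genes, which are not independent replicates, was 0.943 and 0.950, whereas other pairs within a group lay between 0.983 and 0.996. Library 4 also held the highest Myc value, 177 CPM, and the X-linked Xist and Y-linked Ddx3y were at 550 and 106 CPM there, against at least 1574 and at most 6.56 CPM in the other WT libraries. For immortalized cells against WT, the members and the list counts are therefore also given without it, as are named list genes that then moved by over 1.5 times. Immortalized WT libraries 2 and 3 correlated with DKO libraries at 0.965 to 0.976, above their correlation with library 4. Mean Xist and Ddx3y also differed between the immortalized knockouts. They were 252 and 47.8 CPM in MlxKO, 468 and 19.9 CPM in MycKO, and 1026 and 1.68 CPM in DKO. The part of these differences in the results was not tested. In primary cells Xist was at 529 to 545 CPM in DKO and at 102 to 186 CPM in the other groups. Ddx3y was at 10.1 to 10.9 CPM in primary DKO and at 50.5 to 84.8 CPM in the other primary groups. The part of both differences in the primary results was not tested. All 9 fibroblast markers had at least 1 CPM in every primary library. The summed level of the 9 was 34593 to 37155 CPM in primary WT, 37972 to 40007 CPM in MlxKO, 44092 to 46046 CPM in MycKO and 46657 to 47009 CPM in DKO libraries without overlap. In immortalized libraries the sum was 19250 to 27022 CPM for WT, 14908 to 18288 CPM for MlxKO, 13562 to 17531 CPM for MycKO and 21444 to 26326 CPM for DKO. Of the other cell types checked, macrophage markers summed to 49.7 to 544 CPM in primary and 5.74 to 11.9 CPM in immortalized libraries, cartilage and bone markers to 137.5 to 204 and 76.4 to 175 CPM, and tendon markers to 23.4 to 52.9 and 19.6 to 73.1 CPM. Skeletal muscle markers summed to 28.4 to 85.6 and 0.0511 to 0.996 CPM, and adipocyte markers to 7.39 to 13.1 and 10.7 to 47.1 CPM. Epithelial markers summed to 16.5 to 19.9 CPM in primary WT and at most 4.83 CPM in the primary knockouts, and endothelial markers to 13.9 to 15.5 CPM and at most 8.83 CPM. In immortalized cells the endothelial sum was highest in MycKO, at 14.4 to 19.1 CPM, and at most 9.002 CPM elsewhere, and the epithelial sum was at most 5.91 CPM. The part of these sums in the member values was not tested.

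Transcripts of the 10 genes made up a large part of the library in primary cells. Together the 10 genes took 3.87% to 4.13% of reads in primary WT libraries, 3.27% to 3.74% in MlxKO, 5.14% to 5.64% in MycKO and 5.80% to 6.03% in DKO. Thbs1 alone took 1.53% to 1.64% of reads in WT and 2.71% to 2.86% in DKO. Per kilobase of transcript, which is the scale on which genes can be compared, the order in primary WT cells was Thbs1 at a mean of 2445 CPM/kb, Spp1 at 1241, Fn1 at 1046, Postn at 923, Ccn2 at 749, Ccn1 at 545, Tnc at 525, Thbs2 at 321, Thbs3 at 10.6 and Thbs4 at 0.693 CPM/kb. Libraries of neighbours overlapped only for Fn1 with Postn and for Ccn1 with Tnc. In primary DKO cells Thbs1 was again the highest, at 4581 CPM/kb, and Postn came second at 1511 CPM/kb with libraries that overlapped those of Ccn2.

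In immortalized WT cells all members but Ccn1 and Thbs4 were listed at lower mean levels than in primary WT cells, although the tables were normalized separately and were not tested against each other. The 10 genes took 1.84% to 2.81% of reads in immortalized WT libraries, 1.22% to 1.39% in MlxKO, 2.02% to 2.50% in MycKO and 2.07% to 2.49% in DKO. Mean levels per kilobase in WT were 1410 CPM/kb for Thbs1, 803 for Fn1, 743 for Spp1, 718 for Ccn1, 649 for Ccn2 and 561 for Postn, and the libraries of each of these overlapped those of the next. Without library 4, Thbs1 stood at 928 CPM/kb and Fn1 at 829 CPM/kb, and their libraries still overlapped. Tnc, at 66.5 CPM/kb, and Thbs2, at 36.1 CPM/kb, were far below their primary levels, whereas Thbs4, at 46.9 CPM/kb, was far above its primary level.

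**Figure D1:**
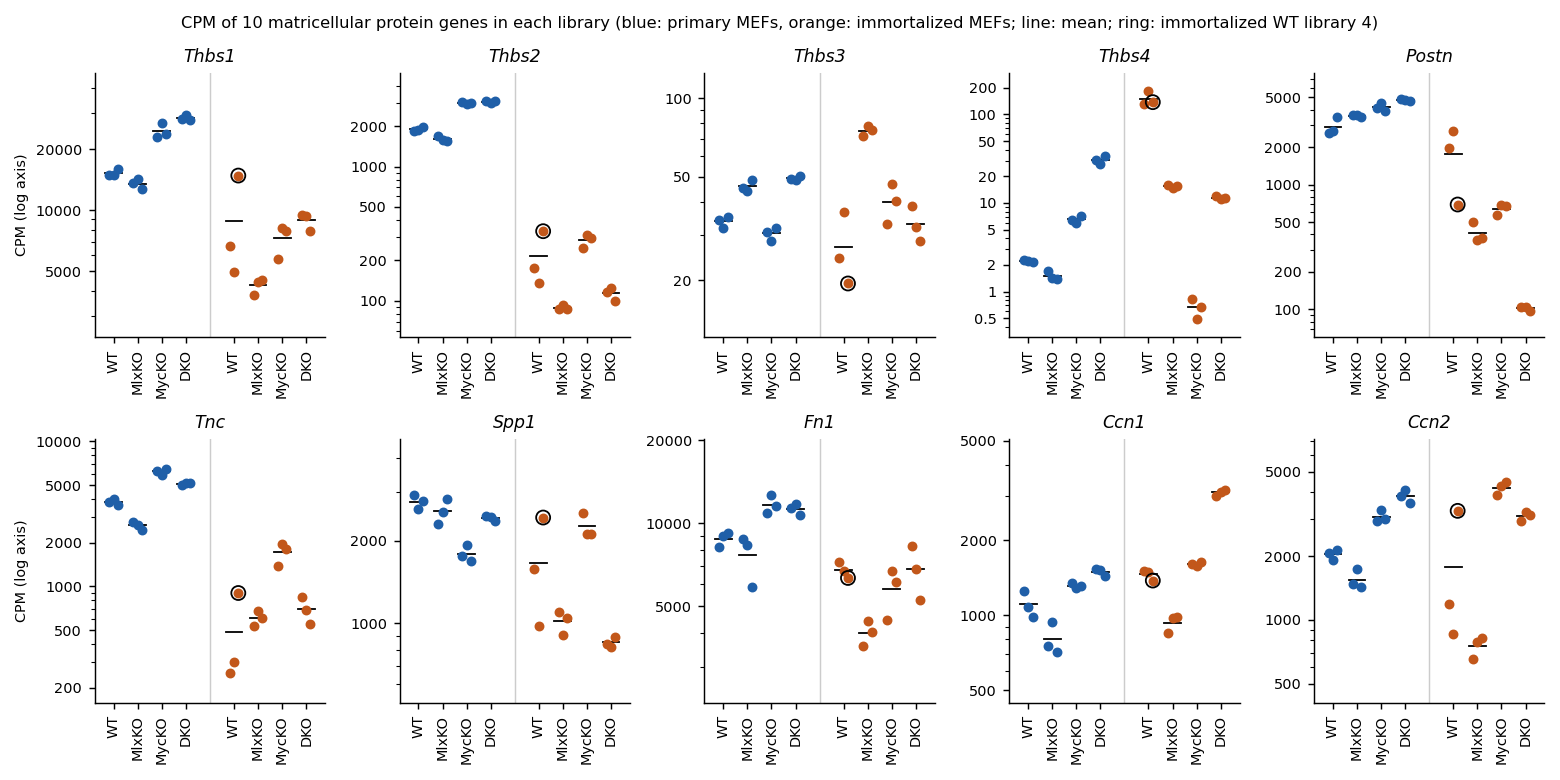
Each panel plots the CPM of 1 gene on a log axis in the 3 libraries of each genotype, with primary MEFs on the left in blue, immortalized MEFs on the right in orange, the mean as a line, and immortalized WT library 4 ringed. The ringed library is the highest of the 3 WT libraries for Thbs1, Thbs2, Tnc, Spp1 and Ccn2 and the lowest for Postn, Thbs3, Fn1 and Ccn1; Thbs4 lies between 130 and 182 CPM in immortalized WT libraries and between 0.494 and 0.818 CPM in immortalized MycKO libraries.

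Each knockout was compared with WT to ask which genes differed after loss of Myc, of Mlx or of both. The paper reports that primary MycKO and DKO cells were growth-arrested when RNA was taken, whereas WT and MlxKO cells proliferated. It also reports that most immortalized MycKO cells had become tetraploid or pseudo-tetraploid. Loss of a gene therefore cannot be told apart from these differences in growth and ploidy. In primary MycKO cells 5 of the 7 tested members rose (Thbs2, Tnc, Fn1, Ccn1 and Ccn2) and 1 fell (Spp1). Over all 13101 genes tested, 20.4% were higher and 21.9% lower, so the share of members that rose was above the background. That background takes in genes with as little as 1 CPM in 3 libraries and was not matched to the members' levels. The median difference of the 7 members was 0.41 in log2(CPM + 1), and that of all genes tested was 0.00. In primary MlxKO cells 1 member rose (Thbs3) and 4 fell (Thbs2, Tnc, Ccn1 and Ccn2), where 3.75% of all genes were higher and 5.14% lower. The median there was -0.25 over the members and 0.00 over all genes. In primary DKO cells 6 of the 7 rose, all but Spp1, and none was lower, whereas 24.0% of all genes were higher and 25.5% lower. The members' median was 0.44 and that of all genes 0.00. Against MycKO, which shares its libraries with the preceding comparisons, primary DKO cells had 3 members higher (Thbs3, Spp1 and Ccn2) and 1 lower (Tnc), where 10.6% of all genes were higher and 11.0% lower. The members' median was 0.19 and that of all genes -0.01.

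The balance of directions in primary cells depended on the scaling between libraries. When each library was divided by its own total, 1851 genes were higher and 4060 lower in MycKO, in place of 2677 and 2864, and 2482 higher and 4199 lower in DKO, in place of 3146 and 3341. For MlxKO the split became 661 higher and 570 lower, in place of 491 and 673. Under that scaling 3 members rose and 2 fell in primary MycKO cells (Fn1 and Ccn1 no longer passed, and Thbs3 was lower), 5 rose and 1 fell in DKO (Fn1 no longer passed, and Spp1 was lower), and 1 rose and 4 fell in MlxKO. In immortalized MlxKO cells 3685 genes were then higher and 1583 lower, in place of 2457 and 2557, with 1 member higher and 3 lower.

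In immortalized MycKO cells 3 of the 7 rose (Thbs3, Tnc and Ccn2) and none fell, where 24.4% of the 12880 genes tested were higher and 23.5% lower. In immortalized MlxKO cells Thbs3 rose and 4 members fell (Thbs2, Fn1, Ccn1 and Ccn2), where 19.1% of all genes were higher and 19.9% lower. In immortalized DKO cells Ccn1 rose and Thbs2 and Spp1 fell, where 10.4% of all genes were higher and 8.51% lower. For MycKO, MlxKO and DKO the medians over the members were 0.54, -0.64 and 0.33, and those of all genes were between -0.01 and 0.01. Against MycKO, immortalized DKO cells had Ccn1 higher and Thbs2, Tnc and Spp1 lower, where 14.8% of all genes were higher and 14.6% lower, and the members' median was -0.44 beside -0.01 over all genes. Without WT library 4, 4 members rose in MycKO, where 27.3% of all genes were higher and 26.7% lower. In MlxKO 2 members then rose and 4 fell, where 23.1% of all genes were higher and 23.8% lower. In DKO 3 members then rose and 2 fell, where 12.0% of all genes were higher and 10.1% lower, and the members' medians became 0.86, -0.43 and 0.13.

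**Figure D2:**
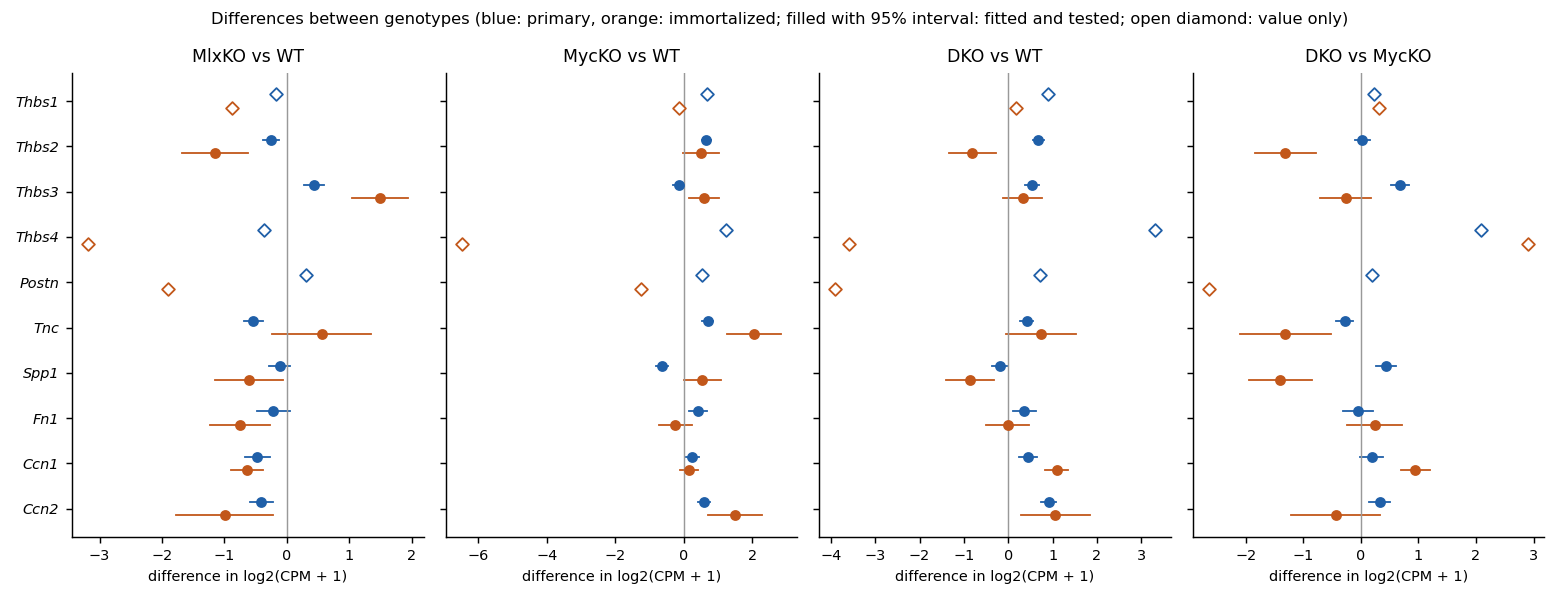
The horizontal axis of each panel is the difference in log2(CPM + 1) between the genotypes named above it, for primary (blue) and immortalized (orange) MEFs. Filled points with 95% intervals are the 7 tested genes and open diamonds the 3 genes given without a test; Thbs4 runs from -6.49 in immortalized MycKO to 3.31 in primary DKO, and both tables place Thbs3 above and Ccn1 below WT in MlxKO.

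Among the thrombospondins, the trimeric Thbs1 and Thbs2 are antiangiogenic glycoproteins that many fibroblasts secrete. Thbs1 in primary WT libraries was at 14866, 14841 and 16021 CPM, in MlxKO at 13545, 14300 and 12664 CPM, in MycKO at 22999, 26842 and 23741 CPM, and in DKO at 28165, 29583 and 27912 CPM. The 4 genotypes did not overlap: MlxKO libraries were the lowest and DKO libraries the highest. Relative to WT, the mean was 0.886 times in MlxKO, 1.61 times in MycKO and 1.87 times in DKO. The ratio of Thbs1 to Fn1 per kilobase, which does not depend on the scaling between libraries, was 2.34 ± 0.114 in WT, 2.43 ± 0.429 in MlxKO, 2.83 ± 0.0468 in MycKO and 3.42 ± 0.0874 in DKO (SD, n = 3). In immortalized cells WT libraries 2, 3 and 4 were at 6617, 4947 and 14806 CPM, MlxKO libraries at 3799, 4445 and 4543 CPM, MycKO libraries at 5754, 8137 and 7910 CPM, and DKO libraries at 9503, 9324 and 7916 CPM. Library 4 was more than the other WT libraries together. With it the DKO mean was 1.01 times that of WT, and without it 1.54 times. For MycKO the values were 0.827 and 1.26 times, on opposite sides of WT, and for MlxKO 0.485 and 0.737 times.

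Like Thbs1, but at a lower level, Thbs2 was above WT in primary MycKO and DKO cells and below WT in MlxKO. Unlike for Thbs1, its DKO and MycKO libraries overlapped. In primary cells WT libraries were at 1856, 1873 and 1971 CPM, MlxKO at 1683, 1574 and 1541 CPM, MycKO at 3049, 2944 and 2969 CPM, and DKO at 3098, 2975 and 3062 CPM. All MycKO and DKO libraries were above, and all MlxKO libraries below, those of WT. The difference in log2(CPM + 1) was 0.65 ± 0.06 (SE) in MycKO, 0.68 ± 0.06 in DKO and -0.25 ± 0.06 in MlxKO, with limma adjusted p of 4.03e-07, 1.55e-07 and 0.0167. The call in MlxKO was lost without WT library 2 or MlxKO library 6 (adjusted p of 0.053 and 0.0655), and without a filter on low values (adjusted p = 0.0966). Between DKO and MycKO the difference was 0.03 ± 0.06 (95% interval -0.10 to 0.16, adjusted p = 0.804). Immortalized cells gave another order. WT was at 176, 136 and 330 CPM, MlxKO at 86.4, 93.8 and 86.9 CPM, MycKO at 246, 311 and 295 CPM, and DKO at 117, 124 and 100.01 CPM. MlxKO and DKO libraries lay below every WT library, with differences of -1.16 ± 0.24 (adjusted p = 0.00356) and -0.81 ± 0.24 (adjusted p = 0.0364), and DKO lay below MycKO by -1.31 ± 0.24 (adjusted p = 0.00149). Omission of any of 7 libraries (WT 2, MlxKO 6 or 7, MycKO 11, or any DKO library) took the DKO call against WT over the threshold, with adjusted p between 0.051 and 0.114, as did a fit without a filter on low values (adjusted p = 0.0678) or with only the groups compared (adjusted p = 0.141). MycKO did not pass with all WT libraries (0.50 ± 0.24, adjusted p = 0.107) and was 0.86 higher without library 4 (adjusted p = 0.000144).

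Thbs3 and Thbs4 belong to the pentameric subgroup, found in cartilage, tendon and muscle. Thbs3 was the member that rose in MlxKO cells of both tables. Its WT libraries in primary cells were at 34.3, 31.9 and 35 CPM, MlxKO at 45.1, 44.0 and 48.6 CPM, MycKO at 30.8, 28.3 and 31.9 CPM, and DKO at 49.0, 48.7 and 50.2 CPM. Both groups without Mlx lay above both groups with it, and WT and MycKO touched at 31.9 CPM. The difference from WT was 0.43 ± 0.07 in MlxKO (adjusted p = 0.0014) and 0.54 ± 0.07 in DKO (adjusted p = 1.5e-05), and DKO exceeded MycKO by 0.68 ± 0.07 (adjusted p = 3.51e-06). For MycKO it was -0.15 ± 0.07 (95% interval -0.30 to 0.01, adjusted p = 0.113), or -0.25 when each library was divided by its own total (adjusted p = 0.0115). Immortalized WT libraries held 24.4, 36.7 and 19.5 CPM, MlxKO 71.5, 77.9 and 75.6 CPM, MycKO 32.8, 46.9 and 40.4 CPM, and DKO 38.6, 32.2 and 28.4 CPM. MlxKO stood above all other groups, 2.79 times the WT mean and 2.45 times without library 4 (difference 1.49 ± 0.20, adjusted p = 0.000393). The MycKO difference of 0.59 ± 0.20 (adjusted p = 0.0308) came from libraries that overlapped those of WT, and it was not past the threshold without WT library 2 or 4 or MycKO library 10 or 11 (adjusted p between 0.0747 and 0.114), without a filter on low values (adjusted p = 0.0514) or with only the groups compared (adjusted p = 0.102). Immortalized DKO cells differed from WT by 0.33 ± 0.20 (adjusted p = 0.274), and by 0.57 without WT library 3 (adjusted p = 0.0341).

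Thbs4 had the widest range of the 10 genes, and relative to WT its MycKO and DKO values were higher in primary and lower in immortalized cells, whereas MlxKO was lower in both. Primary WT libraries were at 2.26, 2.23 and 2.16 CPM, MlxKO at 1.71, 1.44 and 1.39 CPM, MycKO at 6.49, 5.95 and 7.12 CPM, and DKO at 30.9, 27.5 and 34.3 CPM. The groups did not overlap, and the means were 0.681, 2.94 and 14 times that of WT in MlxKO, MycKO and DKO. Immortalized WT libraries held 130, 182 and 137 CPM, MlxKO 15.9, 14.8 and 15.6 CPM, MycKO 0.818, 0.494 and 0.675 CPM, and DKO 11.9, 11.1 and 11.3 CPM. In reads, the immortalized MycKO values were 16, 9 and 12. Here WT was the highest and MycKO the lowest group, and the means were 0.103, 0.00442 and 0.0764 times that of WT in MlxKO, MycKO and DKO. Library 4 lay among the WT libraries for this gene, and without it the ratios were 0.0986, 0.00424 and 0.0733. In both tables the DKO mean exceeded the MycKO mean, 4.74 times in primary and 17.3 times in immortalized cells. Tendon markers, of which Scx, Mkx and Tnmd were taken, summed to 23.4 to 26.9 CPM in primary WT, 33.7 to 37.9 CPM in MlxKO, 27.5 to 27.8 CPM in MycKO and 48.6 to 52.9 CPM in DKO. In immortalized cells they summed to 31.8 to 52.1 CPM in WT, 56.4 to 73.1 CPM in MlxKO, 19.6 to 23.3 CPM in MycKO and 39.3 to 42.1 CPM in DKO. MycKO was lowest in immortalized cells for these markers and for Thbs4, and DKO highest for both in primary cells. MlxKO went opposite ways: in both tables its tendon marker sums were above those of WT, whereas its Thbs4 values were below. Cartilage and bone markers summed to 157 to 173 CPM in primary WT, 158 to 178 CPM in MlxKO, 137.5 to 152 CPM in MycKO and 187 to 204 CPM in DKO. Their sums in immortalized cells were 135 to 152 CPM in WT, 80.9 to 82.9 CPM in MlxKO, 76.4 to 103 CPM in MycKO and 151 to 175 CPM in DKO. The part of both lists in the Thbs4 values was not tested.

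Postn, a matrix protein of periosteum, tendon and healing tissue, was likewise higher than WT in primary and lower than WT in immortalized MycKO and DKO cells. Among primary cells, WT libraries were at 2590, 2680 and 3495 CPM, MlxKO at 3599, 3599 and 3494 CPM, MycKO at 4133, 4523 and 3886 CPM, and DKO at 4890, 4753 and 4712 CPM. MycKO and DKO libraries were above all WT libraries, 1.43 and 1.64 times in the mean, whereas WT library 3 reached into the range of MlxKO. Immortalized WT libraries 2, 3 and 4 held 1966, 2672 and 694 CPM, MlxKO 505, 360 and 375 CPM, MycKO 568, 690 and 673 CPM, and DKO 105, 104 and 96.8 CPM. All knockout libraries were below all WT libraries, but library 4 exceeded the highest MycKO library only narrowly. The means were 0.233, 0.362 and 0.0574 times that of WT in MlxKO, MycKO and DKO, and 0.178, 0.278 and 0.0440 times without library 4.

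Tnc, a hexameric protein of embryonic and wounded tissue that loosens adhesion to Fn1, rose in MycKO cells of both tables. Primary WT libraries were at 3834, 4031 and 3639 CPM, MlxKO at 2794, 2666 and 2461 CPM, MycKO at 6269, 5901 and 6470 CPM, and DKO at 5010, 5159 and 5154 CPM. The groups did not overlap. The difference from WT was 0.70 ± 0.07 in MycKO (adjusted p = 1.18e-06), 0.41 ± 0.07 in DKO (adjusted p = 0.000168) and -0.54 ± 0.07 in MlxKO (adjusted p = 0.00019). DKO was lower than MycKO by -0.28 ± 0.07 (adjusted p = 0.00961), a call lost without a filter on low values (adjusted p = 0.109). Immortalized WT libraries 2, 3 and 4 held 253, 304 and 901 CPM, MlxKO 537, 677 and 606 CPM, MycKO 1383, 1966 and 1810 CPM, and DKO 842, 689 and 555 CPM. MycKO libraries were the highest, 3.54 times the WT mean and 6.18 times without library 4 (difference 2.05 ± 0.37, adjusted p = 0.000792). Relative to all 3 WT libraries, MlxKO differed by 0.56 ± 0.37 (adjusted p = 0.242) and DKO by 0.74 ± 0.37 (adjusted p = 0.173). Without library 4 these became 1.12 (adjusted p = 0.000322) and 1.30 (adjusted p = 0.000204), so the immortalized Tnc calls in MlxKO and DKO depended on that library. DKO was lower than MycKO by -1.31 ± 0.37 (adjusted p = 0.0177), a call lost without MycKO library 10 or 11 or DKO library 14 or 15 (adjusted p between 0.0532 and 0.071).

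Fn1 forms the fibrils to which integrins attach. Primary WT libraries were at 8160, 8977 and 9243 CPM, MlxKO at 8790, 8363 and 5872 CPM, MycKO at 10923, 12597 and 11512 CPM, and DKO at 11374, 11759 and 10723 CPM. MycKO and DKO were above all WT libraries, by 0.41 ± 0.12 (adjusted p = 0.0131) and 0.36 ± 0.12 (adjusted p = 0.0223). The MycKO call was lost without WT library 1 (adjusted p = 0.0568), and the DKO call without WT library 1 or DKO library 13 or 14 (adjusted p between 0.0615 and 0.0852). With division by library totals the adjusted p were 0.0501 and 0.0662, and without a filter on low values 0.145 and 0.183. MlxKO differed from WT by -0.22 ± 0.12 (95% interval -0.48 to 0.04, adjusted p = 0.303), with library 7 far below the other MlxKO libraries. In immortalized cells WT libraries held 7253, 6688 and 6326 CPM, MlxKO 3572, 4426 and 4031 CPM, MycKO 4449, 6693 and 6099 CPM, and DKO 8243, 6844 and 5278 CPM. Only MlxKO lay apart from WT, by -0.76 ± 0.22 (adjusted p = 0.0185), and that call was lost without WT library 2 or MlxKO library 5 or 7 (adjusted p between 0.0557 and 0.0604) and without a filter on low values (adjusted p = 0.16). Intervals of the difference were -0.73 to 0.23 in MycKO and -0.50 to 0.47 in DKO.

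Spp1, a phosphoprotein of bone that macrophages also make, was the member that fell in primary MycKO cells. Primary WT libraries were at 2921, 2597 and 2782 CPM, MlxKO at 2301, 2546 and 2834 CPM, MycKO at 1753, 1919 and 1684 CPM, and DKO at 2459, 2436 and 2351 CPM. MycKO libraries were the lowest, -0.63 ± 0.08 against WT (adjusted p = 8.86e-06), and DKO exceeded MycKO by 0.44 ± 0.08 (adjusted p = 0.00075). DKO libraries were also below all WT libraries, by -0.19 ± 0.08 (adjusted p = 0.0532). That difference passed the threshold with edgeR (adjusted p = 0.0421), with DESeq2 (adjusted p = 0.033), and when any of WT library 2, MlxKO library 5 or 7 or MycKO library 10 was left out (adjusted p between 0.026 and 0.0412), and under 4 other settings, division by library totals among them (adjusted p between 0.00762 and 0.044). The difference for MlxKO was -0.12 ± 0.08 (adjusted p = 0.411). The 8 macrophage markers moved with these values: their summed level was 284 to 544 CPM in primary WT libraries and 310 to 384 CPM in those of MlxKO, but 49.7 to 74.0 CPM in those of MycKO and 108 to 236 CPM in those of DKO. Their part in the Spp1 values was not tested, and in bulk RNA fewer cells of a type cannot be told apart from less RNA per cell. In immortalized cells the macrophage markers summed to at most 11.9 CPM and Adgre1 was at 0 in every library. There, Spp1 was at 1572, 976 and 2424 CPM in WT libraries 2, 3 and 4, at 1103, 908 and 1048 CPM in MlxKO, at 2523, 2121 and 2119 CPM in MycKO, and at 842, 823 and 895 CPM in DKO. DKO libraries were the lowest, -0.86 ± 0.25 against WT (adjusted p = 0.0325) and -1.40 ± 0.25 against MycKO (adjusted p = 0.00119). The call against WT was lost without WT library 2 or any DKO library (adjusted p between 0.0719 and 0.0988), without a filter on low values (adjusted p = 0.0749) and with only the groups compared (adjusted p = 0.13). MycKO differed from WT by 0.54 ± 0.25 (adjusted p = 0.0946), and by 0.86 without library 4 (adjusted p = 0.000953). MlxKO differed by -0.61 ± 0.25 (adjusted p = 0.071), by -0.94 without WT library 3 (adjusted p = 0.00305), and it passed with edgeR (adjusted p = 0.0429) and DESeq2 (adjusted p = 0.0151).

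Ccn1 and Ccn2, secreted cysteine-rich proteins induced by serum and by YAP/TAZ with TEAD factors, fell in MlxKO cells of both tables. Primary Ccn1 was at 1248, 1084 and 988 CPM in WT, 751, 936 and 714 CPM in MlxKO, 1343, 1281 and 1308 CPM in MycKO, and 1530, 1518 and 1436 CPM in DKO. MlxKO libraries lay below and DKO libraries above all WT libraries, by -0.47 ± 0.09 (adjusted p = 0.00468) and 0.44 ± 0.09 (adjusted p = 0.000953). The rise in MycKO was 0.25 ± 0.09 (adjusted p = 0.0408) and was lost without WT library 2 or 3, MycKO library 9 or 11, or DKO library 13 or 14 (adjusted p between 0.0541 and 0.173), without a filter on low values (adjusted p = 0.111) and with division by library totals (adjusted p = 0.215). Immortalized Ccn1 was at 1503, 1497 and 1378 CPM in WT, 849.5, 974 and 981 CPM in MlxKO, 1612, 1580 and 1637 CPM in MycKO, and 3014, 3132 and 3174 CPM in DKO. DKO was apart from every other group, 2.13 times WT (difference 1.09 ± 0.12, adjusted p = 0.000121) and 1.93 times MycKO (0.95 ± 0.12, adjusted p = 8.31e-05). MlxKO was lower than WT by -0.64 ± 0.12 (adjusted p = 0.00188), and MycKO differed by 0.14 ± 0.12 (adjusted p = 0.343). These values changed little without library 4, where DKO was 2.07 times WT.

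Primary Ccn2 was at 2075, 1922 and 2136 CPM in WT, 1473, 1738 and 1425 CPM in MlxKO, 2925, 3289 and 2996 CPM in MycKO, and 3841, 4115 and 3583 CPM in DKO. The 4 groups did not overlap. Differences from WT were -0.41 ± 0.08 in MlxKO (adjusted p = 0.00576), 0.59 ± 0.08 in MycKO (adjusted p = 3.21e-05) and 0.91 ± 0.08 in DKO (adjusted p = 2.1e-07). DKO exceeded MycKO by 0.32 ± 0.08 (adjusted p = 0.00992), or by 0.28 without DKO library 14 (adjusted p = 0.0616), and without a filter on low values the adjusted p was 0.0607. Immortalized Ccn2 was at 1183, 857 and 3274 CPM in WT libraries 2, 3 and 4, 650, 787 and 820 CPM in MlxKO, 3884, 4306 and 4462 CPM in MycKO, and 2934, 3250 and 3140 CPM in DKO. MycKO libraries were the highest, 2.38 times WT and 4.14 times without library 4 (difference 1.5 ± 0.36, adjusted p = 0.00491), whereas WT library 4 was above all DKO libraries. The DKO difference was 1.06 ± 0.36 with all WT libraries (adjusted p = 0.0576) and 1.62 without library 4 (adjusted p = 6.96e-06), and it passed with division by library totals (adjusted p = 0.0481). MlxKO was lower than WT by -0.99 ± 0.36 (adjusted p = 0.0444). That call held without library 4, at -0.43 (adjusted p = 0.0373), or without WT library 3, and was lost without WT library 2 or any library of the other groups (adjusted p between 0.0519 and 0.115). It was also lost under 4 other settings (adjusted p between 0.0501 and 0.14): without a filter on low values, with division by library totals, with only the groups compared and with a robust prior. DKO against MycKO was -0.44 ± 0.36 (adjusted p = 0.388), and the same difference was past the threshold with only the groups compared (adjusted p = 0.0293) and when library 4 was left out of the estimate of the spread (adjusted p = 0.0217). In that fit 1 member was higher and 4 were lower in DKO than in MycKO, where 20.5% of all genes were higher and 20.5% lower.

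**Figure D3:**
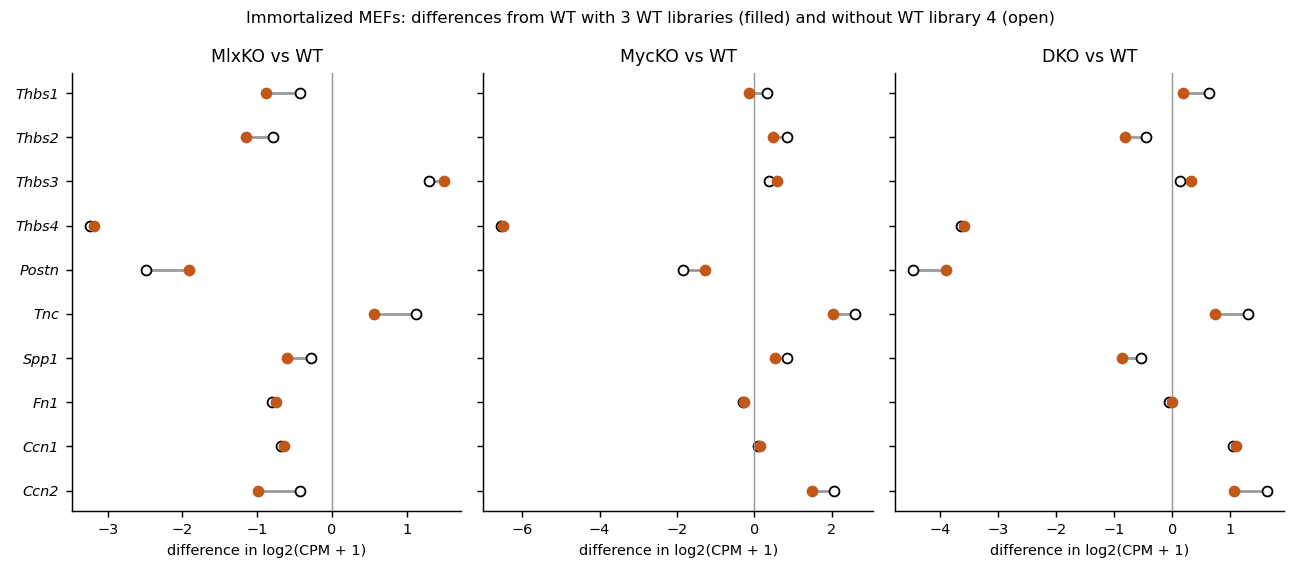
Horizontal axes give the difference in log2(CPM + 1) of immortalized knockout cells from WT, with all 3 WT libraries (filled) and without WT library 4 (open). The sign differs between the estimates for Thbs1 in MycKO, at -0.13 and 0.33, and for no other gene or comparison shown.

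The Myc-by-Mlx interaction asks whether the loss of Mlx acted differently with and without Myc, and is the DKO-to-MycKO difference less the MlxKO-to-WT difference. In primary cells it was positive and past the threshold for 4 of the 7 tested members, where 7.47% of all genes had a positive and 6.07% a negative call. The interaction was 0.73 ± 0.12 for Ccn2 (adjusted p = 0.000418), 0.66 ± 0.13 for Ccn1 (adjusted p = 0.00255), 0.55 ± 0.11 for Spp1 (adjusted p = 0.00289) and 0.28 ± 0.09 for Thbs2 (adjusted p = 0.0431). For Ccn1, Ccn2 and Thbs2 the MlxKO value was below WT whereas the DKO value was not below MycKO. The Thbs2 call was lost in 10 of the 12 omissions of a library (adjusted p between 0.0609 and 0.107), all but those of MlxKO library 5 and MycKO library 10, and without a filter on low values (adjusted p = 0.17). For Tnc the interaction was 0.26 (adjusted p = 0.116), and it passed with edgeR (adjusted p = 0.0451) and DESeq2 (adjusted p = 0.0244). In immortalized cells 2 members had a positive interaction, Ccn1 with 1.59 ± 0.17 (adjusted p = 2.44e-05) and Fn1 with 0.99 ± 0.31 (adjusted p = 0.0207). The Fn1 call was lost without a filter on low values (adjusted p = 0.173). A negative interaction was found for Thbs3, -1.76 ± 0.29 (adjusted p = 0.000488), and Tnc, -1.87 ± 0.52 (adjusted p = 0.0111). The background was 23.7% positive and 23.8% negative calls. With division by library totals the background became 2322 positive and 3927 negative calls, in place of 3047 and 3061, and Spp1 was added at -0.97 (adjusted p = 0.0296). Without library 4 these 4 remained past the threshold, and Spp1 (-1.11, adjusted p = 0.00118) and Thbs2 (-0.52, adjusted p = 0.0278) were added, where 28.1% of all genes had a positive and 28.7% a negative call.

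Genes related to the members were described from 4 lists. Counts of all 4 lists are to be read beside the shares of all genes tested. In primary cells 20.4% of all genes were higher and 21.9% lower in MycKO, 3.75% and 5.14% in MlxKO, and 24.0% and 25.5% in DKO. Of the other matricellular protein genes, 10 of 17 tested were higher and 5 lower in primary MycKO cells, with a median difference of 0.55, and 14 were higher and 1 lower in DKO, with a median of 0.53. In primary MlxKO cells 5 were higher and 2 lower, with a median of 0.26. Ccn3, a CCN protein expressed in many quiescent cells, rose in all 3 primary knockouts, from 112 ± 36.2 CPM (SD, n = 3) in WT to 199 ± 13.3 CPM after loss of Mlx, 234 ± 17.6 CPM after loss of Myc and 500.1 ± 27.4 CPM after loss of both (adjusted p = 0.00122, 1.22e-05 and 5.63e-09). Primary MycKO cells also had more Tnxb, the tenascin of loose connective tissue, at 10.3 ± 1.65 against 2.82 ± 0.420 CPM (adjusted p = 4.93e-07), and Spon1, at 8.20 ± 1.16 against 3.01 ± 0.333 CPM (adjusted p = 1.75e-05). Comp, the thrombospondin family member of cartilage, was at 7.12 ± 0.302 CPM in primary DKO and 1.65 ± 0.314 CPM in WT (adjusted p = 1.03e-06), and Spon2 at 8.60 ± 1.56 and 1.81 ± 0.489 CPM (adjusted p = 2.3e-07). MlxKO cells had less Sparcl1 (-0.72, adjusted p = 0.00616) and more Tnn (0.54, adjusted p = 0.000191).

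In immortalized cells the counts of that list were 5 higher and 4 lower of 18 in MycKO, 4 and 4 in MlxKO, and 4 and 1 in DKO. Without library 4 they were 8 and 5, 6 and 5, and 6 and 2. Of all genes, 24.4% were higher and 23.5% lower in MycKO, 19.1% and 19.9% in MlxKO, and 10.4% and 8.51% in DKO. Without library 4 the shares of all genes were 27.3% and 26.7%, 23.1% and 23.8%, and 12.0% and 10.1%. With all WT libraries, the MycKO and MlxKO counts of the list were near the shares of all genes. The medians of the list were -0.25, 0.13 and 0.25. Tnn rose by 4.04 ± 0.55 in MycKO (adjusted p = 0.000111), whereas Comp (-3.56 ± 0.97, adjusted p = 0.00989) and Smoc1 (-3.41 ± 0.27, adjusted p = 1.83e-06) fell. Without library 4, Tnn stood at 4.93 and Comp at -5.22, and the MycKO level of Comp, 0.166 CPM, is near that of 3 reads. In MlxKO Dmp1, Tgfbi and Lgals1 rose by 1.45, 1.41 and 1.08 (adjusted p = 9.28e-05, 0.00119 and 0.000952), Dmp1 from 0.215 to 2.33 CPM, where the WT level is near that of 3 reads. Tgfbi was lower in DKO, by -2.59 ± 0.24 (adjusted p = 2.93e-05), and Ccn5 and Fbln5 were higher, by 1.20 and 1.15 (adjusted p = 0.000771 and 0.000763).

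Receptors of these proteins changed in both directions, and the shares of all genes given above apply to their counts too. Of 21 tested in primary cells, 10 were higher and 6 lower in MycKO, 2 and 6 in MlxKO, and 11 and 6 in DKO, with medians of 0.21, -0.18 and 0.36. Cd36, a Thbs1 receptor that macrophages and adipocytes express, was lower in primary MycKO, at 0.519 ± 0.138 against 5.70 ± 1.67 CPM (difference -2.11 ± 0.26, adjusted p = 6.71e-06), with the macrophage marker sums given above. The integrin subunit Itga11, which with Itgb1 binds collagen, rose from 311 ± 44.7 CPM in WT to 807 ± 11.1 CPM in MycKO and 859 ± 31.2 CPM in DKO (adjusted p = 1.28e-08 and 3.97e-09). Itga8, a partner of Itgb1 that binds Fn1, Tnc and Spp1, rose from 81.2 ± 11.8 CPM to 175 ± 12.7 CPM and 207 ± 10.9 CPM (adjusted p = 6.69e-08 and 5.24e-09). Itga6 fell in DKO by -1.02 (adjusted p = 7.15e-07). In MlxKO Itga4 and Itgb3 fell by -0.77 and -0.75 (adjusted p = 0.000288 and 1.58e-06), and Sdc2 rose by 0.50 (adjusted p = 0.000102). Of 20 receptors tested in immortalized cells, 10 were higher and 4 lower in MycKO, 2 and 6 in MlxKO, and 6 and 1 in DKO, with medians of 0.47, -0.13 and 0.31, and without library 4 the counts were 11 and 5, 4 and 6, and 8 and 2. With division by library totals the MlxKO counts were 3 and 3, with a median of 0.04, and in primary DKO 11 receptors were higher and 9 lower. Itga8 rose there too, by 4.04 ± 0.56 in MycKO (adjusted p = 0.000132) and 2.11 ± 0.56 in DKO (adjusted p = 0.0222), where its WT mean of 12.3 CPM had an SD of 15.5 CPM. Without library 4 these values were 4.99 and 3.06. Itga4 rose by 3.86 in MycKO and 1.08 in MlxKO (adjusted p = 7.69e-08 and 0.00228), and Itgb8 fell by -2.88 in MycKO (adjusted p = 4.16e-06). Itga11 and Itgav fell in MlxKO, by -1.67 and -0.88 (adjusted p = 0.000158 and 0.000462), and Itga3 and Sdc3 rose in DKO, by 1.05 and 0.98 (adjusted p = 0.0242 and 0.00419). Without library 4 Itga3 was higher by 0.65 (adjusted p = 0.0208).

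Of 20 TGF-beta pathway genes tested in primary cells, 11 were higher and 1 lower in MycKO and 10 were higher and none lower in DKO, with medians of 0.25 and 0.15, whereas in MlxKO 3 were higher and 4 lower, with a median of -0.05. With division by library totals the MycKO counts were 7 higher and 2 lower and those of DKO 9 and 0. Ltbp2, which encodes a latent TGF-beta binding protein family member of elastic fibres, rose from 899 ± 11.9 CPM to 1346 ± 62.0 CPM in MycKO and 1916 ± 31.9 CPM in DKO (adjusted p = 5.31e-07 and 3.8e-10). Smurf1 and the ligand Tgfb1 rose in MycKO by 0.51 and 0.42 (adjusted p = 8.48e-06 and 0.000883), and Ltbp4 and Ltbp3 rose in DKO by 0.75 and 0.69 (adjusted p = 3.5e-07 and 1.59e-07). In MlxKO Ltbp4 and the ligand Tgfb2 rose, by 0.61 and 0.40 (adjusted p = 6.35e-05 and 0.0044), and the inhibitory Smad7 fell by -0.42 (adjusted p = 0.0108). In immortalized cells 5 were higher and 6 lower in MycKO, 2 and 8 in MlxKO, and 3 and 2 in DKO, with medians of -0.16, -0.17 and 0.01, and without library 4 the counts were 8 and 7, 4 and 6, and 5 and 2. The MycKO and DKO counts with all WT libraries were near the shares of all genes given above. With division by library totals 5 were higher and 6 lower in MlxKO. Ltbp2 fell there in MycKO, by -1.71 ± 0.17 (adjusted p = 8.64e-06), as did the inhibitory Smad6, by -1.34 (adjusted p = 7.17e-05), and Tgfb3 rose by 1.34 (adjusted p = 0.000363). Tgfb2, Ltbp4 and the receptor gene Tgfbr1 fell in MlxKO, by -1.03, -0.83 and -0.78 (adjusted p = 4.39e-05, 0.00448 and 0.00138), and Tgfb2 is also on the YAP and TAZ list. The coreceptor gene Tgfbr3 fell in DKO by -1.36, and Smad7 and Smad6 rose by 0.76 and 0.66 (adjusted p = 3.79e-05, 0.00186 and 0.0196).

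YAP and TAZ are coactivators that work with TEAD factors, and Ccn1 and Ccn2 are among their known targets. Of 21 other targets tested in primary cells, 14 were higher and 1 lower in MycKO and 13 higher and 3 lower in DKO, with medians of 0.30 and 0.27. In MlxKO 2 were higher and 6 lower, with a median of -0.08. The shares of all genes for each knockout are those given above. Igfbp3, which binds insulin-like growth factors, rose from 56.4 ± 18.8 CPM to 81.6 ± 2.60 CPM after loss of Mlx, 189 ± 7.82 CPM after loss of Myc and 207 ± 9.85 CPM after loss of both (adjusted p = 0.0181, 7.66e-08 and 2.29e-08). Tissue factor (F3) was at 546 ± 13.1 CPM in DKO against 203 ± 6.98 CPM in WT (adjusted p = 1.05e-11). Ccdc80 and Rbms3 rose in MycKO by 0.77 and 0.70 (adjusted p = 7.11e-08 and 3.28e-05), and Foxf2 in DKO by 1.09 (adjusted p = 4.67e-06). Ankrd1, a standard readout of YAP and TAZ, fell in MlxKO from 49.5 ± 5.34 to 25.5 ± 2.26 CPM (adjusted p = 3.8e-06), and Crim1 fell by -0.49 (adjusted p = 0.000215). Immortalized cells had 10 higher and 3 lower in MycKO, 2 and 2 in MlxKO, and 6 and 1 in DKO, with medians of 0.38, 0.24 and 0.18. Without library 4 the counts were 12 and 3, 6 and 2, and 8 and 1, and the medians 0.47, 0.07 and 0.38. Division by library totals gave 6 higher and 2 lower in MlxKO. Ankrd1 rose in MycKO from 2.59 ± 4.14 to 62.8 ± 6.22 CPM (adjusted p = 3.77e-05), Foxf2 by 3.03 in MycKO and 1.86 in MlxKO (adjusted p = 4.9e-05 and 0.00268), and Nt5e fell by -2.93 and -1.58 (adjusted p = 7e-06 and 0.00149). Without library 4 the Ankrd1 difference was 5.73, against 4.80 with it, and Foxf2 stood at 3.61 and 2.45. In DKO, F3 and Lats2 rose by 1.20 and 0.97 (adjusted p = 0.00382 and 0.000304) and Igfbp3 fell by -2.06 (adjusted p = 0.0202), or by -2.90 without library 4 (adjusted p = 2.36e-06). Without library 4, all list genes named here for immortalized knockouts against WT kept their direction and stayed past the threshold.

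**Figure D4:**
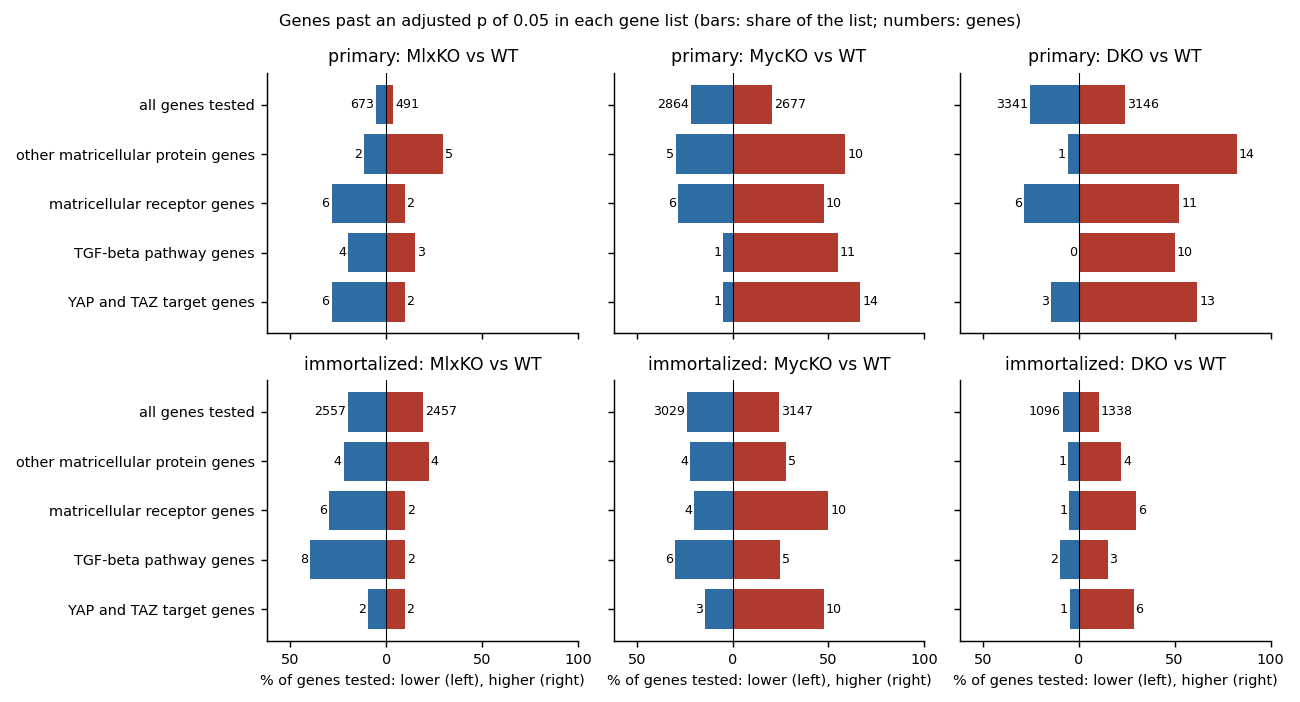
Bars give the percent of genes tested in each list that were lower (left, blue) or higher (right, red) in the knockout than in WT, with the numbers of genes at their ends, and the top bar gives all genes tested. In primary DKO cells 14 of the 17 other matricellular protein genes were higher and 1 was lower; in immortalized DKO cells the counts were 4 and 1 of 18.

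The genes whose levels ran most like those of Thbs1, Thbs4 and Postn were found by Pearson's r of log2(CPM + 1) over the 12 libraries of a table, which share genotype and scaling. For Thbs1 in primary cells these were Itga8 (r = 0.991), Hs6st2 (0.990) and Extl3 (0.990). For Thbs4 they were Sfrp1 (0.996), Cemip (0.994) and Gzme (0.992), and for Postn they were Pros1 (0.974), Antxr2 (0.960) and Ezh1 (0.959). Immortalized cells gave none of the same genes: Anln (0.924), Senp2 (0.916) and Prc1 (0.914) for Thbs1, Tbl1xr1 (0.979), Megf6 (0.968) and Aspn (0.965) for Thbs4, and Arhgap42 (0.961), Pwwp2a (0.930) and Slc38a1 (0.924) for Postn.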

How the data were processed

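RNA was sequenced from 24 MEF cultures, 3 in each of 8 groups. Directional libraries of poly-A RNA were sequenced on a NovaSeq instrument, and the authors mapped and counted the reads on GRCm39 in CLC Genomics Workbench. Use of strand in the counting is not given in the sources used here. They deposited a signal per gene, CPM after a further scaling between libraries that is not given in the sources used here, with primary and immortalized cells in separate tables. All values were whole multiples of 1 read within a tolerance of 0.1 reads, which gave reads for the count models. Floors cover counting error only.

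Groups came from the labels. Values were fitted as log2(CPM + 1) by limma 3.58.1 (R 4.3.3), letting the variance prior follow the mean level, in 1 fit per table over its 4 groups, and tests were 2-sided. A difference on this scale understates the change of low genes. A gene was tested where 3 or more of the 12 libraries of its table reached 1 CPM, with Benjamini-Hochberg adjustment over all of them and a threshold of 0.05. All 10 members passed this filter in both tables. No exact test was used, since 3 libraries against 3 cannot go below p = 0.1. The planned design assumed CPM with no further scaling. The members and lists were chosen with earlier results of these data known. Named from the 4 pathway lists were up to 3 genes per list and knockout with the largest absolute difference among those past the threshold whose libraries did not overlap. Genes like Thbs1, Thbs4 and Postn were the 3 with the highest r among genes with a mean of at least 5 CPM, without members and predicted genes. Markers of 8 cell types were summed. Starts and lengths were those of the canonical transcripts of GENCODE vM39. The window before the start of 1 member is not reported here. edgeR 4.0.16, DESeq2 1.42.0 and other settings were alternatives, and the fits were tested on simulated data. For the list counts, the omission of immortalized WT library 4 and the division by library totals were chosen after seeing the data. Figures were drawn with matplotlib 3.10.9.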

Additional observations from a re-analysis of the deposited data

Results flagged for a closer look

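The Myc-by-Mlx interaction, a test of whether loss of Mlx had different effects with and without Myc, was past the threshold (limma) in primary cells for Ccn2 (0.73), Ccn1 (0.66), Spp1 (0.55) and Thbs2 (0.28), all positive. In immortalized cells it was past the threshold for Ccn1 (1.59), Fn1 (0.99), Thbs3 (-1.76) and Tnc (-1.87). Ccn1 was the tested member with a call in both tables. Of all genes tested, 7.47% had a positive and 6.07% a negative call in primary cells, and 23.7% and 23.8% in immortalized cells. The number of members called in immortalized cells was near that background. The primary Thbs2 call was lost in 10 of the 12 omissions of a library. Without a filter on low values, the calls of Thbs2 and Fn1 were lost (limma adjusted p = 0.17 and 0.173).

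For Thbs4 and Postn every MycKO and every DKO library lay above WT in primary cells and below WT in immortalized cells, and for Thbs2 every DKO library did so. Thbs4 and Postn were chosen partly for their values in these tables, so for them this is only a description. The share of all genes with such a pattern is not given here. For Postn, immortalized WT library 4, at 694 CPM, was only narrowly above the highest MycKO library, at 690 CPM. The difference in direction between the tables was not tested, because they were normalized separately. Thbs4 differed from WT in log2(CPM + 1) by 1.22 in primary and -6.49 in immortalized MycKO cells, and by 3.31 and -3.58 in DKO cells. Postn differed by 0.53 and -1.26 in MycKO and by 0.72 and -3.90 in DKO. Thbs2 differed by 0.68 and -0.81 in DKO, and its immortalized call was lost when any of 7 libraries was left out (limma adjusted p between 0.051 and 0.114).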

How the results depend on the processing

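No paired analysis was possible because nothing links a column's library number to a replicate number in the labels, so a replicate block could not be fitted. Of 1526 values of the 7 tested members under alternatives, 1412 kept direction and side of the threshold, 77 lost a call, 29 gained a call and 8 changed sign, none of the 8 past the threshold. Of 654 values of Thbs1, Thbs4 and Postn, 614 moved by less than the spread between libraries. Many of these could not move at all. Other filters, the robust prior, a fit of only the groups compared and omission of a library outside the comparison leave the difference unchanged. With edgeR, with DESeq2 and with a pseudocount of 0.1, 5 primary values moved and 10 did not in each case. In immortalized cells 3 moved and 12 did not. Without a filter on low values, 2 members were called for DKO against MycKO in primary cells, in place of 4. In immortalized cells 3 members were then called for MlxKO against WT, in place of 5, and 1 for DKO against WT, in place of 3. The share of all genes called without that filter is not given here, so these counts are not set against a background. With only the groups compared, immortalized DKO against WT gave 906 genes and 1 member. Omission of a library moved the genes called in primary MlxKO against WT between 620 (without WT library 1) and 2025 (without MycKO library 10). In immortalized cells it moved them between 2836 and 6028 for MlxKO, with 3 to 6 members, and between 1095 and 3248 for DKO, with 1 to 5 members. The extremes of the genes called came without MlxKO library 6 and WT library 4 for MlxKO, and without DKO library 13 and WT library 3 for DKO. Fn1 for DKO against WT in immortalized cells changed sign with edgeR (0.023), DESeq2 (0.0099), without WT library 2 (0.038) and without DKO library 15, and lay between -0.166 and 0.155 over the omissions. Omission of 1 library also turned Fn1 for primary DKO against MycKO (-0.095 to 0.0082, without MycKO library 10), its primary interaction (-0.013 to 0.278, without MlxKO library 7), and the immortalized interactions of Ccn2 (-0.013 to 0.954, without WT library 4) and Thbs2 (-0.517 to 0.118, without WT library 3). The causes were not tested. Division by library totals moved the median of all genes by 0.15 in immortalized MlxKO against WT and by at most 0.09 in size in the other comparisons. At these depths 3 reads are 0.145 to 0.196 CPM, and the 9 to 16 reads of Thbs4 in immortalized MycKO cells are the scarcest of the members.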
